A study of Homo sapiens with 6 samples.

Results

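The MYC network comprises transcription factors that dimerize through a basic helix–loop–helix leucine zipper and bind E-box DNA. MYC, an activator of growth and proliferation genes, acts as a dimer with MAX. The MXD proteins (MXD1, MXD3, MXD4 and MXI1), MNT and MGA also pair with MAX and repress, the MXD proteins by recruiting the SIN3 corepressor with its histone deacetylases. MLX is a second common partner, which joins MLXIP (also called MondoA), a nutrient-sensing activator, to the same network. In many tissues MYC belongs to proliferating cells and MXD proteins to differentiating or resting cells, except that MXD3 has been linked to S phase.

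The 10 network genes MYC, MAX, MXD1, MXD3, MXD4, MXI1, MNT, MLX, MLXIP and MGA were found by Ensembl identifier among the 60656 genes of the count table. Counts came from 6 libraries of parental ZR-75-1 cells, an ER-positive, luminal human breast cancer line with intact RB1, in which oestrogen signalling drives growth. The 3 control libraries received DMSO, and the other 3 received the CDK4/6 inhibitor abemaciclib at 500 nM, with both groups kept in the same medium with serum for 4 days. The study's methods describe the replicates as independent biological samples of 1 experiment. RB1 knockout libraries are not analysed here, so the comparison asks what the drug did to these mRNAs in cells that have Rb, and not whether Rb was needed.

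Library totals lay between 3317860 and 4013156 counts, and 10863 genes, including all 10 network genes, had enough counts to be tested. All values per library are CPM, a gene's share of a library's total count with totals scaled by the TMM method. The kit reads the 3′ end of each polyadenylated transcript, so counts do not grow with transcript length and levels of different genes were set side by side without a length correction. Reads were counted, not molecules, and capture that differs between genes was not measured, so ratios between genes are ratios of counts. The 10 luminal markers were ESR1, GATA3, FOXA1, KRT8, KRT18, KRT19, EPCAM, CDH1, XBP1 and SPDEF. They summed to 9252–9720 CPM with DMSO and to 10666–11774 CPM with abemaciclib, but did not all move the same way. At an adjusted P under 0.05 (edgeR), ESR1 (log2 fold change 0.83), KRT19 (0.45) and XBP1 (0.38) were higher. KRT18 (−0.34) and SPDEF (−0.37) were lower. These shares, 30% higher and 20% lower, stand beside 12.5% and 13.3% of all genes tested. Of 10 markers of basal, mesenchymal, immune, fibroblast and endothelial cells, 8 (VIM, KRT5, KRT14, PTPRC, CD3E, COL1A2, PECAM1 and CDH5) had 0 counts in every library. The other two were COL1A1, with 13.1 ± 2.68 and 12.5 ± 2.67 CPM in the groups (SD, n = 3), and ACTA2, which fell from 9.25 ± 3.71 to 1.31 ± 0.714 CPM (SD, n = 3, adjusted P = 0.000191, edgeR). The list summed to 18.7–29.1 CPM with DMSO and 10.6–17.0 CPM with abemaciclib. Its part in the results was not tested. In bulk RNA, fewer cells carrying a transcript and less of it per cell cannot be told apart.

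Among the network genes, those past the test were MXD3 and MXD4, both repressors, as are MXD1, MXI1, MNT and MGA. MXD3 mRNA fell to a small remainder and MXD4 mRNA rose, whereas MYC and MAX did not pass the threshold of 0.05 on the Benjamini–Hochberg adjusted P over all genes tested (edgeR, quasi-likelihood fit). Of the 10 genes, 1 was called lower, against 13.3% of all genes tested, and 1 was called higher, against 12.5% of all genes tested. Both shares of the network, 10% each, lay near that background, and its median log2 fold change was −0.02 against −0.0018 over all genes tested. Groups did not overlap for 4 of the 10 (MXD3, MXD4, MNT and MLXIP), a share that the 39.1% of all genes tested with groups apart puts in scale.

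**Figure D1:**
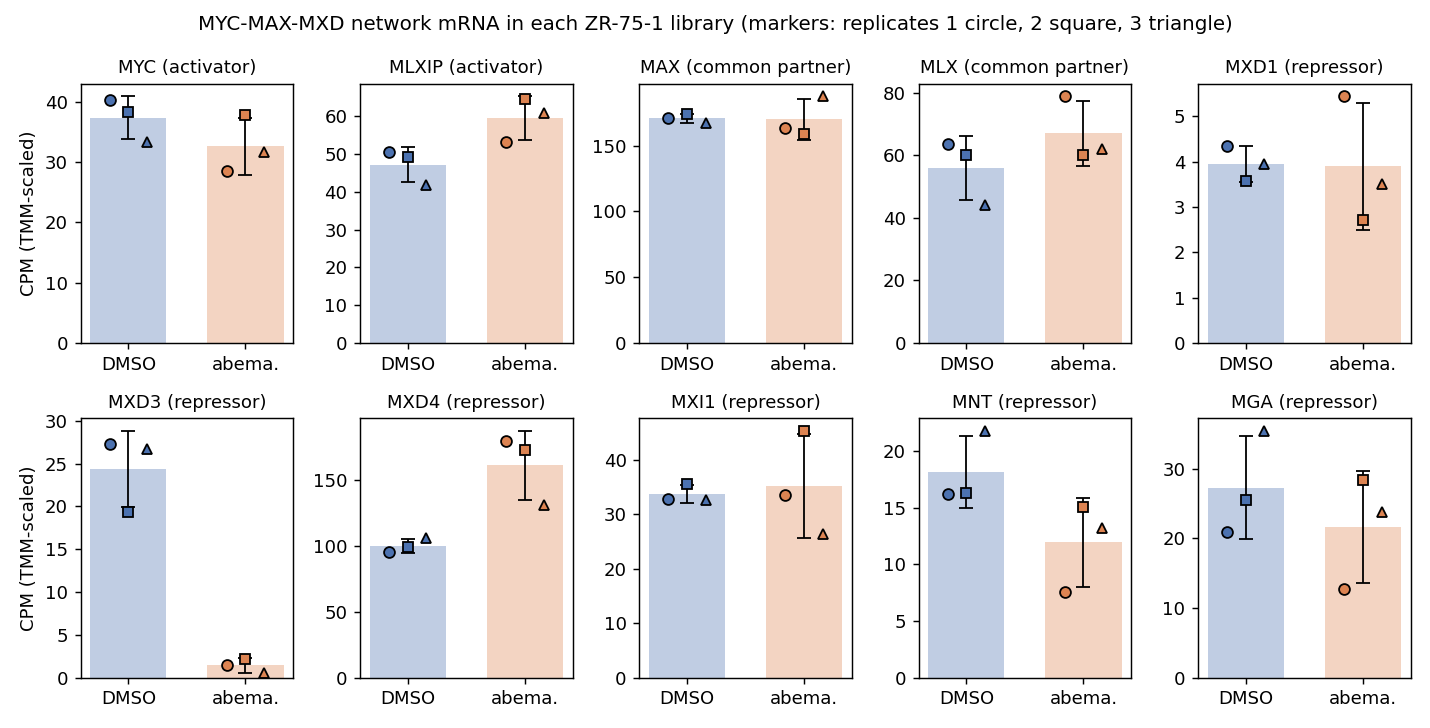
CPM of each of the 10 network genes by treatment, on axes that start at 0 and differ between genes. Bars are means, error bars are SD over 3 libraries and markers are single libraries. MXD3 drops from 24.4 to 1.42 CPM and MXD4 climbs from 99.9 to 161.3 CPM, while the MAX libraries of both groups share 1 range.

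MXD3, a MAX partner and SIN3-dependent repressor, was the network gene with the largest change. Its counts were 94, 65 and 88 in DMSO replicates 1 to 3, which are 27.3, 19.3 and 26.7 CPM. With abemaciclib they were 5, 9 and 2, or 1.51, 2.22 and 0.540 CPM. The lowest DMSO library was thus far above the highest abemaciclib library. The log2 fold change was −4.05 (standard error 0.38, 95% interval −4.83 to −3.27, adjusted P = 2.03e-09, edgeR). Ranked from the lowest log2 fold change, it was number 42 of the 10863 genes tested. Over summed counts, 247 with DMSO against 16 with abemaciclib, the level was 16.9-fold lower with the drug, with an exact interval of 10.2 to 30.0 for counting error only. Left-out libraries moved the log2 fold change between −4.55 and −3.66 and its call held each time.

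MXD3 lies on chromosome 5 of hg38 from 177301461 to 177312757 on the minus strand. Its canonical transcript has 6 exons and ends at 177307210, where no other annotated exon overlaps. The 3′ ends of other annotated MXD3 transcripts overlap PRELID1 on the opposite strand and RAB24 on the same strand. Reads there could be assigned to either gene or to neither. PRELID1, a mitochondrial intermembrane space protein, had 1323 counts over the DMSO libraries and 1421 over the abemaciclib libraries (log2 fold change −0.02, adjusted P = 0.944, edgeR). RAB24, a small GTPase, had 6 and 4 counts, too few to be tested.

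MXD4, the most abundant MXD mRNA in these cells, moved the opposite way. It had 95.1, 98.9 and 105.7 CPM in the DMSO libraries, from 328, 333 and 349 counts. The abemaciclib libraries had 179.7, 172.9 and 131.3 CPM, from 594, 701 and 486 counts. All drug-treated libraries lay above all controls, and replicate 3 was the closest of them to the controls. The log2 fold change was 0.69 (standard error 0.12, 95% interval 0.44 to 0.94, adjusted P = 7.93e-05, edgeR), a 1.61-fold higher level. The call held without any 1 library, with log2 fold changes between 0.61 and 0.82. MXD4 lies on chromosome 4 from 2247432 to 2262109 on the minus strand, its canonical transcript has 6 exons, and no other annotated exon overlaps the last 500 bases of any of its 5 transcripts.

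**Figure D2:**
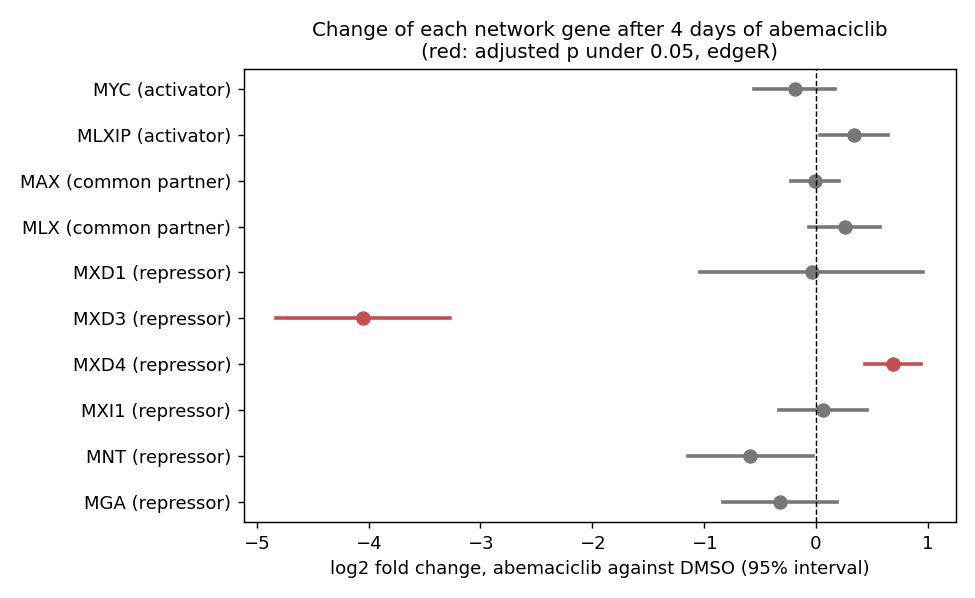
Log2 fold change of each network gene, abemaciclib against DMSO, with its 95% interval (lines) and adjusted P under 0.05 in red. MXD3 lies at −4.05 and MXD4 at 0.69, and the intervals of 6 of the other 8 genes include 0.

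MXI1 and MXD1, the remaining MXD genes, did not pass the test. MXI1, a repressor also called MXD2, had 32.8, 35.6 and 32.7 CPM with DMSO and 33.6, 45.4 and 26.5 CPM with abemaciclib, so the drug-treated libraries spread to both sides of the controls. Its log2 fold change was 0.06 (95% interval −0.33 to 0.46, adjusted P = 0.848, edgeR). MXD1, the founding member of the family and a gene of differentiating cells, had the fewest counts of the network genes over all 6 libraries, 11 to 18 per library in both groups and from 2.71 to 5.45 CPM. With so few counts its interval was wide (log2 fold change −0.04, 95% interval −1.03 to 0.96).

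The MXD genes together were therefore made up differently after treatment. Summed over MXD1, MXD3, MXD4 and MXI1, the DMSO libraries held 159.5, 157.4 and 169.0 CPM and the abemaciclib libraries 220.2, 223.3 and 161.9 CPM, with abemaciclib replicate 3 inside the range of the controls. MXD3 made up 17.1% (95% exact interval 14.0 to 20.5), 12.3% (9.59 to 15.4) and 15.8% (12.8 to 19.1) of MXD counts in the DMSO libraries. In the abemaciclib libraries its share was 0.687% (0.223 to 1.6), 0.994% (0.456 to 1.88) and 0.334% (0.0405 to 1.2). The intervals of the groups did not overlap, and they cover counting error only. MXD4 went from a share of 61.7 ± 1.77% (SD, n = 3) to 80.1 ± 2.27% (SD, n = 3), and MXI1 had 20.8 ± 1.66% and 17.3 ± 2.67% (SD, n = 3 in each group). For each MXD3 count the DMSO libraries held 3.49 to 5.12 MXD4 counts, and the abemaciclib libraries held 77.9 to 243.

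**Figure D3:**
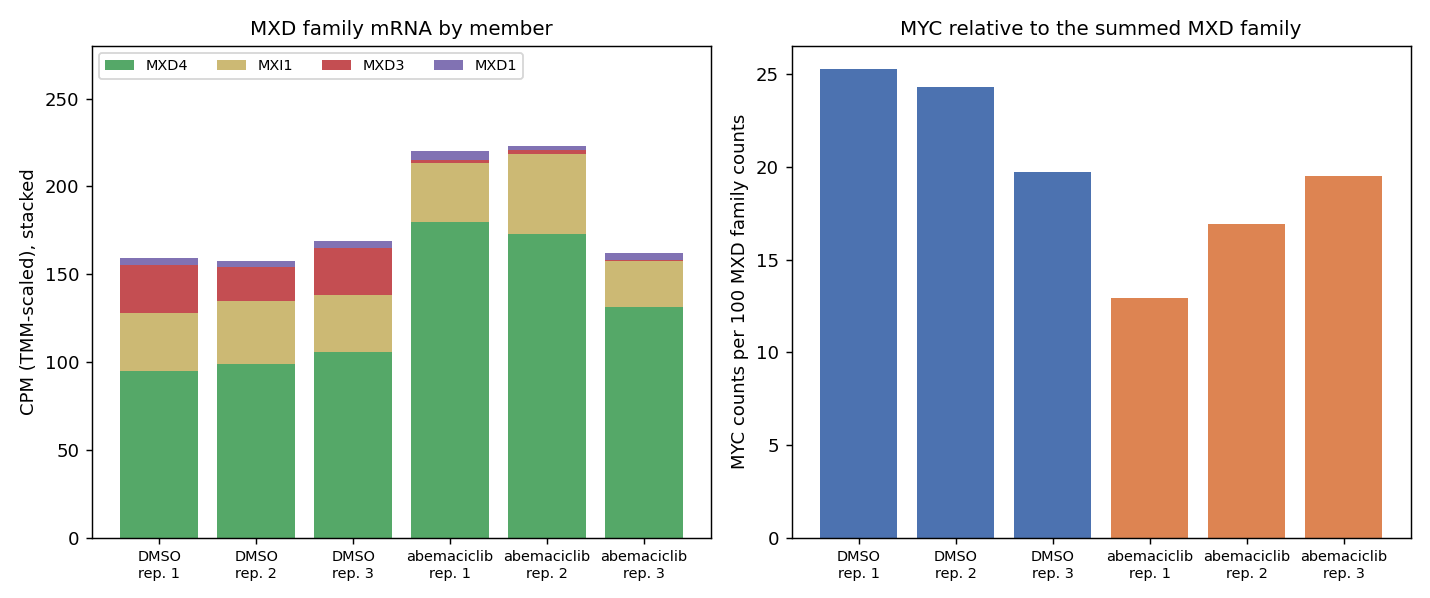
Left, CPM of the 4 MXD genes stacked for each library. Right, MYC counts per 100 counts of the MXD genes together, in DMSO (blue) and abemaciclib (orange) libraries, where the 3 DMSO libraries span 19.7 to 25.3 and the abemaciclib libraries 12.9 to 19.5.

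MYC, the activator of the network and a known oestrogen-responsive gene, had 40.3, 38.3 and 33.3 CPM with DMSO from 139, 129 and 110 counts. With abemaciclib it had 28.4, 37.7 and 31.6 CPM from 94, 153 and 117 counts. The groups overlapped, since abemaciclib replicate 2 was above DMSO replicate 3. The 95% interval of its log2 fold change ran from −0.56 to 0.17 (adjusted P = 0.481, edgeR). MYC lies on chromosome 8 from 127735434 to 127742951 on the plus strand, with 3 exons in its canonical transcript. Set against the MXD genes, which compete with it for MAX, there were 25.3, 24.3 and 19.7 MYC counts per 100 MXD counts in the DMSO libraries and 12.9, 16.9 and 19.5 in the abemaciclib libraries. The lowest control lay just above the highest drug-treated library, and the mean log2 ratio was 0.50 lower with abemaciclib (difference −0.50, from −2.12 ± 0.19 to −2.62 ± 0.30, SD, n = 3). This ratio is a description of mRNA, with no test, and without abemaciclib replicate 1 the difference was −0.34. MNT and MGA, which also pair with MAX and repress, were not in the sum. They had 21.8 and 35.4 CPM in DMSO replicate 3, against 13.2 and 23.8 CPM in abemaciclib replicate 3. With both added to the sum the groups would overlap, so their separation depends on which repressors are summed.

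MAX, the obligate partner of MYC and of the MXD proteins, was the most abundant network mRNA. It had 171.4, 173.8 and 167.2 CPM with DMSO and 163.7, 158.9 and 187.8 CPM with abemaciclib. Its log2 fold change was −0.01 (95% interval −0.22 to 0.21, adjusted P = 0.976, edgeR), so a change of more than about 0.22 on the log2 scale in either direction lay outside the interval. The 3′ end of a MAX transcript that is not the canonical one overlaps FNTB on the opposite strand. FNTB had 178 counts over the DMSO libraries and 161 over the abemaciclib libraries, against 1728 and 1880 for MAX. Reads from the overlap may have been given to either gene or to neither.

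MLX, the other common partner, had 63.5, 60.0 and 44.2 CPM with DMSO and 79.0, 60.2 and 61.9 CPM with abemaciclib, and the groups overlapped. Its log2 fold change was 0.26 (95% interval −0.06 to 0.57, adjusted P = 0.243, edgeR), and was 0.11 without DMSO replicate 3 and 0.13 without abemaciclib replicate 1. The 3′ end of its canonical transcript overlaps PSMC3IP on the opposite strand, a recombination factor with 57 counts over the DMSO libraries and 39 over the abemaciclib libraries, against 567 and 734 for MLX. Reads from the overlap may have been given to either gene or to neither, so the level of MLX is uncertain.

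MLXIP, which pairs with MLX and moves to the nucleus when glucose-6-phosphate is high, had 50.5, 49.3 and 41.8 CPM with DMSO. It had 53.2, 64.6 and 60.8 CPM with abemaciclib, each above every control. The log2 fold change was 0.34 (95% interval 0.03 to 0.64), and after adjustment over all genes tested it was not past the threshold (adjusted P = 0.0983, edgeR). The paralogue MLXIPL, or ChREBP, which serves the same role in lipid and sugar metabolism, is outside the 10 genes. It rose from 16.4 ± 1.29 to 25.5 ± 4.13 CPM (SD, n = 3), which is 0.63 on the log2 scale (adjusted P = 0.0322, edgeR). This call was lost with DESeq2 (0.64), and also when replicate 1 (0.59) or 2 (0.62) of the controls or replicate 3 (0.50) of the drug group was left out.

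MNT, a broadly expressed repressor that pairs with MAX in cycling and resting cells alike, had 16.2, 16.3 and 21.8 CPM with DMSO and 7.56, 15.0 and 13.2 CPM with abemaciclib. Every abemaciclib library was below every DMSO library, replicate 1 most of all. The log2 fold change was −0.59 (95% interval −1.15 to −0.03), not past the threshold after adjustment (adjusted P = 0.119, edgeR). Without abemaciclib replicate 1 it was −0.35.

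MGA, a large MAX partner that is the scaffold of the variant Polycomb complex PRC1.6, had 20.9, 25.5 and 35.4 CPM with DMSO and 12.7, 28.4 and 23.8 CPM with abemaciclib. These ranges overlapped widely, and the log2 fold change of −0.32 had a 95% interval of −0.83 to 0.19 (adjusted P = 0.378, edgeR). Without abemaciclib replicate 1, which was low in both MNT and MGA, it was −0.06.

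In the DMSO libraries the order of mean levels was MAX (170.8 CPM), MXD4 (99.9), MLX (55.9), MLXIP (47.2), MYC (37.3), MXI1 (33.7), MGA (27.3), MXD3 (24.4), MNT (18.1) and MXD1 (3.95). MAX, MXD4 and MXD1 stood clear of their neighbours in this order, whereas libraries of MLX and MLXIP overlapped, and so did those of every adjacent pair from MYC down to MNT. With abemaciclib the mean of MXD4 was 161.3 CPM, and its libraries reached into the range of MAX. MXD3 moved from the eighth place to the last, at 1.42 CPM, below MXD1 at 3.89 CPM. Of the MYC paralogues, MYCN had 0 counts in all 6 libraries, which allows up to 0.740 to 0.909 CPM for counting error alone. MYCL had 6, 4 and 5 counts with DMSO and 0, 0 and 1 with abemaciclib, too few to be tested.

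Genes that work with the network were taken from lists. In the 5 lists with 0 genes higher by edgeR, DESeq2 also called 0 higher, and at an unadjusted P under 0.05 edgeR had 1 gene higher in the list on MYC stability and 0 in the other four. MYC coactivators, which include acetyltransferases and chromatin remodelers, had 2 of 10 genes lower (20% beside the 13.3% of all genes tested) and 0 higher (beside 12.5%). Their median stood at −0.25 on the log2 scale, against −0.0018 over all genes tested. KAT5, the acetyltransferase of the TIP60 complex, fell from 129.6 ± 11.1 to 79.0 ± 16.1 CPM (SD, n = 3), though its 3′ end overlaps RNASEH2C on the opposite strand. HCFC1, a coactivator that binds MYC, fell from 183.9 ± 12.5 to 150.2 ± 10.6 CPM (SD, n = 3, log2 fold change −0.29, adjusted P = 0.0438, edgeR). Its call was lost with DESeq2 (−0.28), with no filter on low counts (−0.29), and with replicate 1 (−0.29) or 2 (−0.25) of the controls or replicate 1 (−0.23) or 2 (−0.30) of the drug group left out.

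Genes that set the stability of MYC protein had 5 of 13 genes lower, or 38.5% beside the 13.3% of all genes tested. In this list 0 genes were higher, beside 12.5% of all genes tested, and the median was −0.05. PLK1, a mitotic kinase, fell by 4.31 on the log2 scale (164.2 ± 21.5 to 8.30 ± 2.45 CPM, SD, n = 3), and its 3′ end overlaps ERN2 on the opposite strand. AURKA, the Aurora kinase that shields MYC proteins from degradation, fell by 1.64, and CIP2A, an inhibitor of the phosphatase that destabilizes MYC, fell by 1.57. SKP2 (log2 fold change −0.54, adjusted P = 0.0337, edgeR) and SET (−0.48, adjusted P = 0.000125, edgeR) were the remaining lower genes of this list. With 1 library left out, 4 to 5 genes of the list were lower, beside 1132 to 1529 of all genes tested. FBXW7, the ubiquitin ligase subunit that targets MYC, had 106.0 and 115.7 CPM in the groups (adjusted P = 0.498, edgeR).

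The SIN3 complex, through which MXD proteins repress, had 3 of 16 genes lower, or 18.8% beside the 13.3% of all genes tested. In this list 0 genes were higher, beside 12.5% of all genes tested, and the median was −0.14. Without abemaciclib replicate 3 there were 5 lower (1529 of all 11218 genes tested). Without abemaciclib replicate 1 there was 1 higher (1166 of all 11272 genes tested). SAP30 fell by 0.85, SINHCAF by 0.73 and RBBP7 by 0.43 on the log2 scale, the last with a 3′ end that overlaps TXLNG on the opposite strand. SINHCAF overlaps an unnamed gene on the same strand. The scaffolds SIN3A (log2 fold change −0.29) and SIN3B (−0.05) did not pass the test. Of 14 genes of the PRC1.6 complex that MGA organizes, 2 were lower and 0 higher, with a median of −0.12. The share lower, 14.3%, was near the 13.3% of all genes tested, and the 0 higher stood beside 12.5%. Without replicate 3 of either group, 1 gene was higher. Over all genes tested, 1088 of 11239 were higher without DMSO replicate 3 and 1412 of 11218 without abemaciclib replicate 3. The 2 lower genes were TFDP1 (−0.47), the dimer partner of E2F proteins, and CBX1 (−0.40), a heterochromatin protein. Both calls were lost without DMSO replicate 2 (−0.43 and −0.37) or abemaciclib replicate 2 (−0.36 and −0.31).

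Of 48 genes that MYC is known to activate, 45 had enough counts. Of these 5 fell and 3 rose, shares of 11.1% and 6.67% beside the 13.3% and 12.5% of all genes tested. The median of these genes stood at −0.01 on the log2 scale. FBL, the nucleolar methyltransferase fibrillarin, fell from 378.4 ± 4.81 to 187.9 ± 6.88 CPM (SD, n = 3), or −1.01 on the log2 scale (adjusted P = 2.36e-09, edgeR). TCOF1, which aids ribosomal DNA transcription, fell by 0.78 and NOP56, a partner of FBL in ribosomal RNA methylation, fell by 0.45. PHB1, a mitochondrial scaffold, SRM, which makes spermidine, and NOLC1, a nucleolar chaperone, rose by 0.33, 0.32 and 0.32. A gene on the opposite strand overlaps the 3′ end of PHB1. PHB1 lost its call with replicate 2 (0.28) or 3 (0.30) of the controls or replicate 1 (0.23) of the drug group left out. SRM lost it without any 1 of the controls (0.36, 0.27 and 0.33) or replicate 3 of the drug group (0.25), and NOLC1 without any 1 of the controls (0.36, 0.30 and 0.30) or replicate 2 of the drug group (0.29). NOLC1 also lost its call with DESeq2 (0.33) and with no filter on low counts (0.33). CDK4, a MYC target and the kinase that abemaciclib inhibits, had 412.2 and 419.9 CPM in the groups (adjusted P = 0.873, edgeR).

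**Figure D4:**
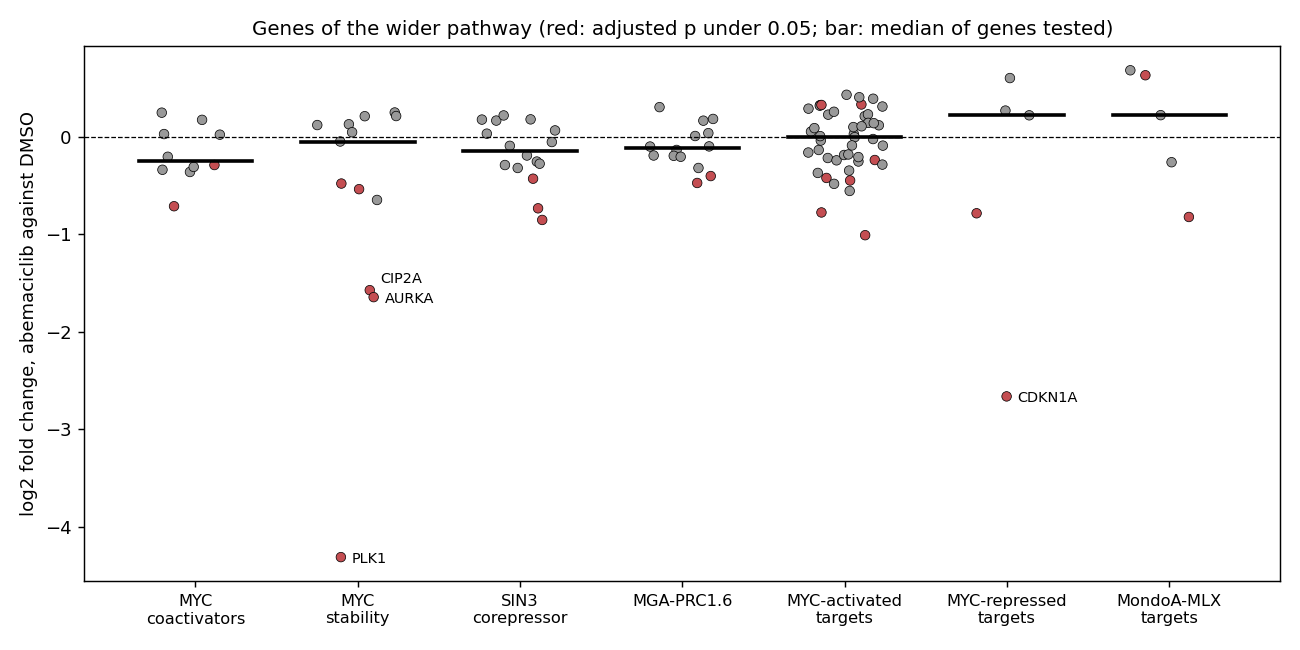
Log2 fold changes, abemaciclib against DMSO, of the tested genes in 7 lists of the wider pathway. Points are genes, red where the adjusted P is under 0.05, and bars are list medians, which all lie between −0.25 and 0.22 while PLK1, at −4.31, and CDKN1A, at −2.66, lie far below.

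Of 8 genes that MYC represses, 5 had enough counts. Of these 2 fell and 0 rose, shares of 40% and 0% beside the 13.3% and 12.5% of all genes tested. The median of the list was 0.22 on the log2 scale, since the 3 genes not past the threshold had log2 fold changes above 0. Without abemaciclib replicate 3, 1 gene of this list was higher, beside 1412 of all 11218 genes tested. CDKN1A, the CDK inhibitor p21 and also a p53 target, fell from 151.6 ± 10.3 to 23.9 ± 4.49 CPM (SD, n = 3), and CDKN1B, the CDK inhibitor p27, fell by 0.79 on the log2 scale. Of 5 targets of MLXIP and MLX, 1 was higher and 1 lower, or 20% each beside the 12.5% and 13.3% of all genes tested. Their median was 0.22. PFKFB3, a driver of glycolysis, rose by 0.63 (adjusted P = 0.0391, edgeR), and KLF10, a zinc finger repressor, fell by 0.82 (adjusted P = 0.0114, edgeR). TXNIP, the thioredoxin-interacting protein and best-known target of the pair, had 631.5 ± 59.3 and 735.8 ± 12.6 CPM (SD, n = 3) with groups apart (adjusted P = 0.0764, edgeR). PFKFB3 lost its call without replicate 2 (0.73) or 3 (0.40) of the controls or replicate 2 (0.67) or 3 (0.50) of the drug group, and with DESeq2 (0.64). KLF10 lost its call without DMSO replicate 1 (−0.71) or abemaciclib replicate 2 (−0.72).

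Over all lists together, 20 of the 106 genes tested fell and 5 rose, which is 18.9% and 4.72% beside the 13.3% and 12.5% of all genes tested. The 5 were MLXIPL, PHB1, SRM, NOLC1 and PFKFB3, and none of them was called without DMSO replicate 2. In that fit the lists held 0 higher genes (edgeR), and 981 of all 11233 genes tested were higher. On all libraries, DESeq2 had 3 list genes higher, and edgeR had 9 at an unadjusted P under 0.05. The lists held 2 higher genes without DMSO replicate 1, and 3 without DMSO replicate 3 or without abemaciclib replicate 2. The number that fell was 15 to 23 with 1 library left out.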

How the data were processed

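RNA from ZR-75-1 cells was made into 3′ mRNA libraries. According to the study's methods, the authors used BBDuk to trim reads, STAR 2.7.5b to align to hg38 and featureCounts 2.0.1 to count per GENCODE gene. They deposited raw counts, with no normalization. Whether counting used strand is not given in the sources used here.

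Libraries were grouped by treatment as labelled. The contrast, abemaciclib against DMSO with no covariate, was computed with edgeR 4.0.16 in R 4.3.3 (filterByExpr, TMM, glmQLFit, glmQLFTest, Benjamini–Hochberg adjustment, threshold 0.05). A standard error is the log2 fold change divided by the root of F, and intervals of 95% use the same degrees of freedom. On simulated counts with 200 changed genes, 96.1% of log2 fold changes of 2 in size and 75.3% of those of 1 were recovered among 10674 genes tested. The fit called 180 genes there, of which 165 were changed genes and the rest false calls. Locations and 3′ overlaps (last 500 bases) came from a GENCODE annotation of hg38 newer than the authors'. Sequences ahead of start sites are not reported here.

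Network genes are all described. From each list of the wider pathway, at most the 3 largest falls and 3 largest rises past the threshold were named. FBXW7, SKP2, SET, SIN3A, SIN3B, CDK4 and TXNIP were added after their values were seen. The members and lists were chosen with earlier results of these data known. The columns of the count table were all mapped to samples. Alternatives were DESeq2 1.42.0, its size factors, library totals, other count filters, a replicate block, a robust fit and each library left out.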

Additional observations from a re-analysis of the deposited data

How the results depend on the processing

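For MXD3, MXD4 and the other network genes, no alternative changed the side of the threshold, and the adjusted P ranged from 1.29e-24 to 1.66e-07 for MXD3 and from 2.5e-09 to 0.00203 for MXD4 (edgeR or DESeq2). With at least 10 counts required in every library MXD3 could not be tested, which left 0 network genes lower. The counts of 1 higher and 1 lower were the same in all fits that left out 1 library. Over the wider lists, 5 genes were higher, but 3 with DESeq2, 2 with a replicate block and 0 to 5 when 1 library was left out, the cause of which was not tested. The replicate numbers gave no sign of pairing over all genes together. Deviations of same-numbered libraries from their group means correlated at −0.043, 0.007 and −0.089, and those of differently numbered libraries at −0.055 to 0.096. Pairing that touches only part of the genes was not tested. Under the replicate block 1139 genes were higher and 1280 lower, against 1354 and 1442, and HCFC1 (−0.29), NOLC1 (0.32), SRM (0.32) and PFKFB3 (0.65) were no longer called. Leaving out 1 library gave 981 to 1412 higher and 1132 to 1529 lower. The difference in the log2 ratio of MYC to MXD was −0.58 with MXD3 and MXD4 alone in the sum, and −0.64 to −0.34 with 1 library left out. Of 402 values of single genes under an alternative, 364 kept their side of the threshold, and no called direction reversed. Low counts limit MXD1, MXD3 with abemaciclib and MYCL. Groups of 3 libraries are too small to single out an outlying library.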
